A study of Mnemiopsis leidyi with 40 samples.

Results

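Of 16548 gene models of the comb jelly Mnemiopsis leidyi, 9 had transcripts that were abundant in embryos of 0 to 1 h and held at most 33.3% of that level in each block of embryos from 4 h of development on. They were ML135620a, ML071126a, ML086432a, ML102254a, ML03245a, ML093042a, ML220724a, ML012012a and ML45132a. The data were read counts from 40 single embryos, 2 at each of 20 times from 0 to 20 h, taken from the 3' ends of polyadenylated RNA by CEL-Seq. Embryos were joined into blocks of neighbouring times, and a block's level is the summed count of a gene over the summed gene reads, scaled to 1000000 (CPM). A gene entered with at least 50 CPM at 0-1 h (4 embryos) and less than 2 times that level at 2-3 h (4 embryos). That limit of 33.3% was set at 4-5 h (6 embryos), 5.5-6.5 h (6), 7-7.5 h (4), 8-9 h (6), 11-13 h (6) and 20 h (2), and at 11-13 h at most 20% was allowed. The labels give no treatment, strain or genotype, and the groups are told apart by age alone. The 9 were thus chosen by their levels at all of these times, so differences between blocks are given as a description without a test. The 2 embryos of 10 h were not used in the choice. The rule did not compare times within a block. It did use the counts of the same embryos, so the choice can bear on those differences too.

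An animal egg carries messenger RNA made by the mother, which directs the first cleavages before the embryo transcribes much of its own genome. During the maternal-to-zygotic transition part of this RNA loses its poly(A) tail and is destroyed, while new transcripts appear. In ctenophores the early cleavages follow a fixed pattern. The gene models carry IDs without names, and 0 of 16548 were found in the RefSeq table used here, so the 9 are given by ID, with no role and no sequence. CEL-Seq primes on poly(A), so loss of an RNA and loss of its tail cannot be told apart, nor can fewer cells of a type and less RNA per cell. A level in CPM is a share of an embryo's gene reads and is not scaled by length, so it is compared between times for 1 gene and not between genes.

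The name under which these genes were gathered, maternal transcripts cleared by 4 to 5 h, held in part. At 4-5 h none of the 9 had come down to 10% of its 0-1 h level, and they stood at 18.2% to 32.3% of it. These levels depend on 4 h replicate 1 and 4.5 h replicate 2, which differed from their age partners. Without them ML03245a stood at 7.68% instead of 18.2% and ML45132a at 11.0% instead of 24.4%, and the other 7 at 17.5% to 30.4%. That choice drops 1 side of the split only, and levels without both of their partners were not computed. At 7-7.5 h 8 of the 9 were at or below 10%, the exception being ML071126a with 13.5%. That they are maternal rests here on their presence at 0 h alone. Membership also depended on the scaling. With library sizes scaled by TMM, which takes most genes as unchanged between embryos, 3 genes met the rule (ML135620a, ML102254a and ML03245a), and the same 3 were the ones that met it after leaving out each of the 40 embryos in turn.

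The 4 embryos of 0 and 1 h had 1665525 to 2541569 gene reads each. In the whole series 36 embryos had 977034 to 4511124 gene reads, and 4 were shallower: 4 h replicate 1 (580587), 8.5 h replicate 2 (343202), 5.5 h replicate 2 (264033) and 10 h replicate 1 (3808). The embryos of 4 and 4.5 h were split in a way that touches several of the 9. Over 9576 genes, 4 h replicate 1 had a Spearman correlation of 0.894 with the 0-1 h profile and 0.874 with the 2-3 h profile, and 4.5 h replicate 2 had 0.920 and 0.899. The order was turned round in 4 h replicate 2, with 0.890 and 0.940, and in 4.5 h replicate 1, with 0.892 and 0.938. Later embryos mostly had the order of 4 h replicate 1 and 4.5 h replicate 2. At 5 h replicate 1 had 0.907 and 0.890, and replicate 2 had 0.872 and 0.852. The same order held in 5.5 h replicate 1 and in the embryos of 6 and 6.5 h, but not in the shallow 5.5 h replicate 2 (0.794 and 0.826). Ages are given as labelled. Whether the embryos of 4 and 4.5 h were staged as labelled cannot be told from the files, which bears on every level at 4 to 5 h given here. ML30695a was a transcript of at most 8.66 CPM at 0-1 h and 14.2 CPM at 2-3 h. The embryos of 4 h held it at 866 and 639 CPM and those of 4.5 h at 1081 and 798 CPM. Without 4 h replicate 1 and 4.5 h replicate 2, a choice made after their levels were seen, the rule gave 14 genes, among them all 9. Their partners were left out singly and not together. Without 4 h replicate 2 the rule gave 8 genes, 7 of the 9 among them. Without 4.5 h replicate 1 it gave 7 genes, 6 of the 9 among them.

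Such an early and lasting decrease was rare among abundant early transcripts. Of 2748 genes with at least 50 CPM at 0-1 h, 2699 stayed under 2 times that level at 2-3 h. At 4-5 h 14 of them, 0.509% of the 2748, were at or below 33.3%, and 9 of these 14 (0.328%) met every later limit too. The median over the 2748 was 86.0% of the 0-1 h level at 4-5 h, 63.3% at 7-7.5 h and 48.2% at 11-13 h. A level of at most 33.3% was held by 14.0% of them at 7-7.5 h and by 28.0% at 11-13 h. The 5 genes that were low at 4-5 h and left the rule later were ML070817a, ML32311a, ML03525a, ML035011a and ML056926a. Of these ML035011a went furthest up again, with 78.3 CPM at 0-1 h, 8.24 CPM at 4-5 h and 148 CPM at 11-13 h.

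**Figure D1:**
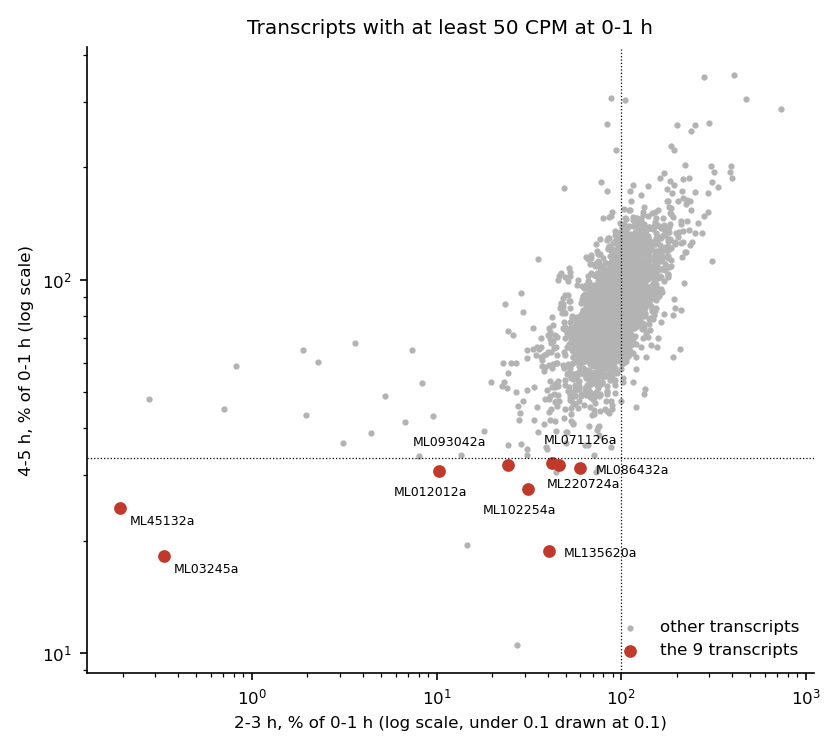
Level at 4-5 h (vertical axis) against level at 2-3 h (horizontal axis), both as a percent of the 0-1 h level on log scales, for 2748 transcripts with at least 50 CPM at 0-1 h. Red points are the 9 transcripts, all under the dotted line at 33.3%, and the vertical dotted line marks 100%. ML45132a and ML03245a lie far to the left, at 0.192% and 0.332% at 2-3 h.

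The summed level of the 9 was 3671 CPM at 0-1 h, 1408 CPM at 2-3 h and 894 CPM at 4-5 h, which is 24.4% of the start. It was 509 CPM at 5.5-6.5 h, 239 CPM at 7-7.5 h and 137 CPM at 11-13 h. The order of the blocks differed between the 9. All 9 were lower at 7-7.5 h than at 5.5-6.5 h, and 7 were lower at 5.5-6.5 h than at 4-5 h. Between 2-3 h and 4-5 h 5 were lower at the later block and 4 were higher (ML03245a, ML45132a, ML012012a and ML093042a). For 7 of the 9 every embryo of 4 to 5 h was below every embryo of 0 and 1 h, the exceptions being ML012012a and ML45132a. The same held for 8.48% of the 2748, but the rule used these blocks, so nothing is read from the difference.

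**Figure D2:**
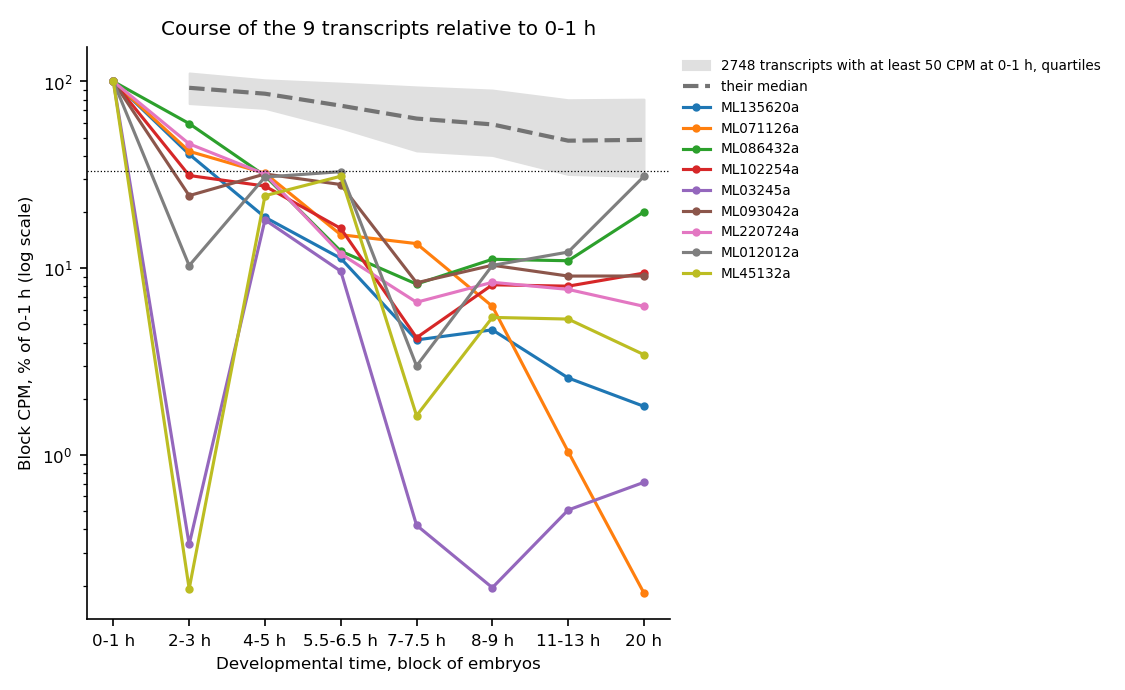
Block level as a percent of the 0-1 h level (log scale) over the 8 blocks of time for each of the 9 transcripts. The grey band and dashed line are the quartiles and the median of the 2748 transcripts with at least 50 CPM at 0-1 h, and the dotted line is 33.3%. At 4-5 h the 9 lie between 18.2% and 32.3%, and 4 of them lie lower at 2-3 h than at 4-5 h.

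The courses are set out here as kinds by level at 2-3 h, a grouping drawn from the values for description and not tested. The first kind of course was a decrease that left 40.8% to 59.5% of the 0-1 h level at 2-3 h, in ML135620a, ML071126a, ML220724a and ML086432a. It was not gradual in all of them. ML220724a was near level from 3 to 4.5 h, and ML086432a fell between 1 and 2 h and was higher at 3 h. ML135620a had 1967 and 2356 CPM at 0 h and 1494 and 1505 CPM at 1 h. It had 1190 and 480 CPM at 2 h and 617 and 444 CPM at 3 h. From 4 to 5 h its lowest value was 179.8 CPM, its median 389 CPM and its highest 522 CPM, so no embryo of 4 to 5 h reached the lowest of 0 to 1 h. Its mean was 378 ± 111 CPM at 4-5 h (SD, n = 6) and 1830 ± 414 CPM at 0-1 h (SD, n = 4). Both embryos were under 10% of the 0-1 h level at 6.5 h and at each later time but 10 h, where 10 h replicate 1 had a single read. At 20 h it had 44.6 and 22.3 CPM, 1.82% of the 0-1 h level.

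ML071126a reached the lowest share of the 9 at 20 h, and its embryos of 0 h stood further apart than those of any other of the 9. It had 1848 and 417 CPM at 0 h, 707 and 559 CPM at 1 h, 606 and 67.1 CPM at 2 h and 338 and 163 CPM at 3 h. Its 2-3 h embryos overlap those of 0-1 h. From 4 to 5 h it ranged over 99.1 to 375.5 CPM with a median of 323 CPM, all below the 417 CPM of the lowest 0-1 h embryo. It no longer met the limits once any of 3 embryos was left out, namely 0 h replicate 1, 4 h replicate 2 and 5 h replicate 2. Its later levels were 123 CPM at 5.5-6.5 h, 110.4 CPM at 7-7.5 h, 51.0 CPM at 8-9 h and 8.50 CPM at 11-13 h. At 20 h each embryo had 2 reads, which gives 1.49 CPM or 0.182% of the 0-1 h level.

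ML220724a was lower in both 1 h embryos than in both 0 h embryos, with 52.7 and 61.2 CPM at 1 h against 104.5 and 117 CPM at 0 h. It had 56.7 and 33.8 CPM at 2 h and 26.4 and 30.4 CPM at 3 h. The 4 embryos of 4 and 4.5 h lay between 30.0 and 36.4 CPM, and those of 5 h had 29.9 and 6.95 CPM. From 3 to 4.5 h its 6 embryos thus stayed between 26.4 and 36.4 CPM. From 6 h on no measurable embryo was over 14.6 CPM, and the block of 7-7.5 h had 5.22 ± 1.19 CPM (SD, n = 4).

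ML086432a was the single gene of the 9 that held more than 50% of its level at 2-3 h (59.5%). It had 330.2 and 235 CPM at 0 h and 254 and 253 CPM at 1 h, then 124 and 132 CPM at 2 h and 172 and 207 CPM at 3 h. Both 3 h embryos were therefore above both 2 h embryos. It had 112 and 171 CPM at 4 h, 44.7 and 105 CPM at 4.5 h, and 65.9 and 33.4 CPM at 5 h, so that both 5 h embryos were below both 4 h embryos. Its lowest block was 7-7.5 h, with 20.6 ± 10.9 CPM (SD, n = 4). At 20 h it had 64.6 and 40.9 CPM, both above every embryo from 6 to 13 h.

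The second kind was a step down between 1 and 2 h that kept a residue, in ML102254a and ML093042a. ML102254a had 236 and 276.5 CPM at 0 h and 247.5 and 243 CPM at 1 h, then 52.0 and 145 CPM at 2 h and 55.3 and 102.5 CPM at 3 h. ML093042a had 118 and 162 CPM at 0 h, 90.5 and 157 CPM at 1 h, 24.6 and 63.4 CPM at 2 h and 28.5 and 23.5 CPM at 3 h. In both genes the 4 embryos of 2 and 3 h were all below the 4 of 0 and 1 h. The same held for ML135620a and ML086432a of the first kind, and ML086432a also fell between 1 and 2 h. Neither trait therefore sets the second kind apart. At 2-3 h ML102254a stood at 31.4% and ML093042a at 24.5% of its 0-1 h level, below the genes of the first kind. At 4 h ML102254a had 193 CPM in replicate 1 and 72.1 CPM in replicate 2, and at 4.5 h 29.6 CPM in replicate 1 and 109.7 CPM in replicate 2. ML093042a had 79.2 and 38.3 CPM at 4 h and 28.5 and 56.0 CPM at 4.5 h, in the same order of replicates. In both genes the higher embryo of each age was the one with the profile nearer to 0-1 h than to 2-3 h, an order that both 5 h embryos had too. The part of that split in these levels was not tested. At 7-7.5 h ML102254a had 10.9 ± 3.33 CPM and ML093042a 12.1 ± 2.45 CPM (SD, n = 4 each).

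The third kind was a near absence at 2 to 3 h followed by higher levels in embryos labelled 4 h and later, in ML03245a, ML45132a and, less sharply, ML012012a. ML03245a had 124 and 183 CPM at 0 h and 160.1 and 144 CPM at 1 h. At 2 h it had 2 and 3 reads (0.623 and 1.85 CPM), and at 3 h 0 reads in both embryos, which allows up to 1.08 and 1.47 CPM. ML45132a had 68.4 and 60.2 CPM at 0 h and 56.3 and 29.5 CPM at 1 h, and 1 read in all 4 embryos of 2 and 3 h together. Those 4 embryos had 1625319 to 3212300 gene reads, about as many as those of 0 and 1 h. ML012012a had 88.9 and 86.5 CPM at 0 h, 59.0 and 93.4 CPM at 1 h, 12.1 and 6.15 CPM at 2 h and 8.31 and 3.92 CPM at 3 h. For these 3 genes all embryos of 2 and 3 h were below all of 0 and 1 h, as they were for the second kind and for ML135620a and ML086432a.

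At 4 and 4.5 h each of the 3 was much higher in one embryo than in the other, and ML03245a and ML45132a were at or near 0 in the other. ML03245a had 58 reads (99.9 CPM) in 4 h replicate 1 and 3 reads (1.88 CPM) in 4 h replicate 2, a ratio of 53.1 with a 95% exact interval of 17.3 to 265. At 4.5 h it had 119 reads (67.3 CPM) in replicate 2 and 2 reads (1.08 CPM) in replicate 1, a ratio of 62.5 (16.9 to 522). ML45132a had 29 reads (49.95 CPM) in 4 h replicate 1 and 0 in replicate 2, a ratio of 26.5 against a floor of 3 reads in that library, with an exact 95% lower limit of 20.2. At 4.5 h it had 51 reads (28.8 CPM) in replicate 2 and 0 in replicate 1, a ratio of 17.9 against 3 reads in replicate 1, with a lower limit of 14.0. ML012012a had 60.3 CPM in 4 h replicate 1 and 3.76 CPM in 4 h replicate 2, a ratio of 16.0 (6.67 to 46.6), and 36.2 CPM in 4.5 h replicate 2 and 9.69 CPM in 4.5 h replicate 1. These intervals cover counting error only. The embryos that held the transcripts were again the pair whose profiles were nearer to 0-1 h than to 2-3 h, as with ML102254a and ML093042a. Both 5 h embryos, which held the transcripts too, had the same order.

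A difference of at least 8 times between embryos of one age, taken on CPM + 1, was uncommon among genes with at least 20 CPM in either. At 4 h 3.42% of such genes were that much higher in replicate 1, among them 3 of the 9. At 4.5 h 0.567% were that much higher in replicate 2, among them 2 of the 9. Among genes with at least 20 CPM in either embryo at both ages, 18 (0.451%) were past this fold in both 4 h replicate 1 and 4.5 h replicate 2, including ML03245a and ML45132a. Of the 18, 17 had at least 20 CPM at 0-1 h, but the share over all genes of that filter was not counted, so nothing is read from it. At 2 h ML071126a was past it in replicate 1, as were 9.95% of genes at that time. At 5.5 h ML086432a and ML012012a were past it in replicate 1 (background 3.07%), where replicate 2 was shallow and 3 reads amount to 11.4 CPM. At the other 15 ages compared none of the 9 was past it.

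**Figure D3:**
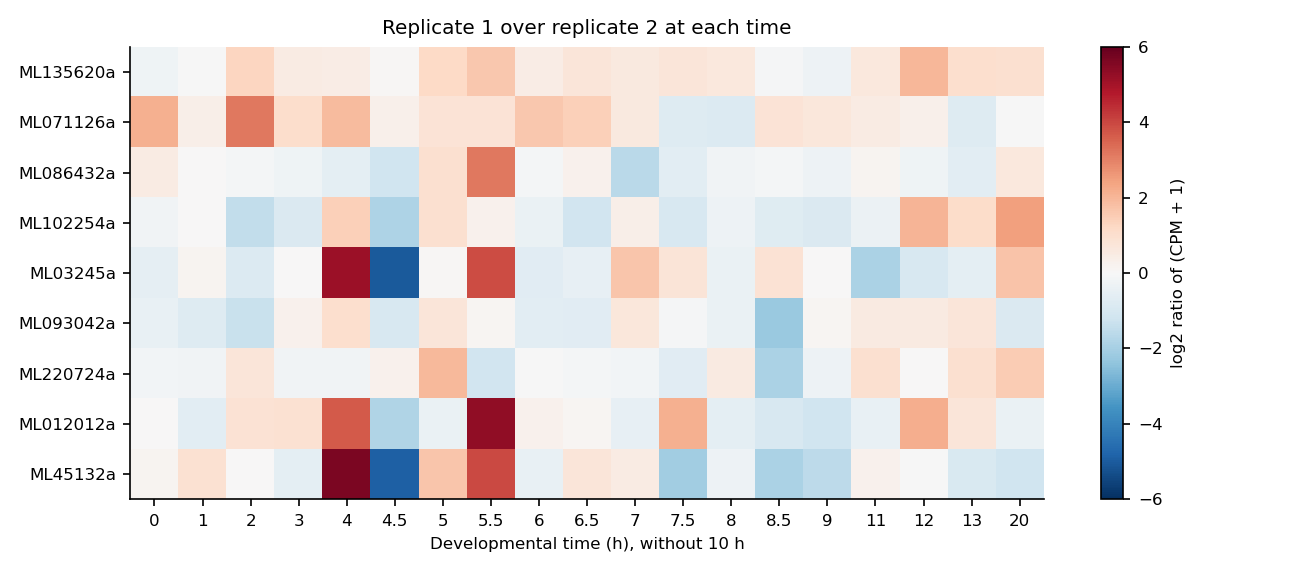
Heat map of the log2 ratio of replicate 1 over replicate 2 (CPM + 1) at each time other than 10 h (columns, in hours), for each of the 9 transcripts (rows), where red is higher in replicate 1 and blue is higher in replicate 2. ML03245a, ML45132a and ML012012a are deep red at 4 h and blue at 4.5 h, and the red cells at 5.5 h lie over the shallow 5.5 h replicate 2.

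From 5 to 6.5 h both embryos of each age held these 3 transcripts, other than 5.5 h replicate 2. ML03245a had 23.9 and 22.6 CPM at 5 h, 17.5 and 29.0 CPM at 6 h and 5.71 and 8.42 CPM at 6.5 h. ML45132a had 23.9 and 6.95 CPM at 5 h, 18.5 and 25.6 CPM at 6 h and 14.7 and 8.42 CPM at 6.5 h. ML012012a had 24.9 and 33.4 CPM at 5 h, 29.5 and 24.3 CPM at 6 h and 24.0 and 21.8 CPM at 6.5 h. The 3 were then low in both 7 h embryos, with 2.89 and 0.222 CPM for ML03245a, 0.722 and 0.222 CPM for ML45132a, and 1.44 and 2.44 CPM for ML012012a. Both 7 h embryos were below both 6.5 h embryos for 7 of the 9, all but ML135620a and ML071126a, against 14.4% of 9576 genes, a comparison chosen after the values were seen and between blocks that the rule used, so it is a description. From 7 h on ML03245a had at most 6 reads in any embryo.

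**Figure D4:**
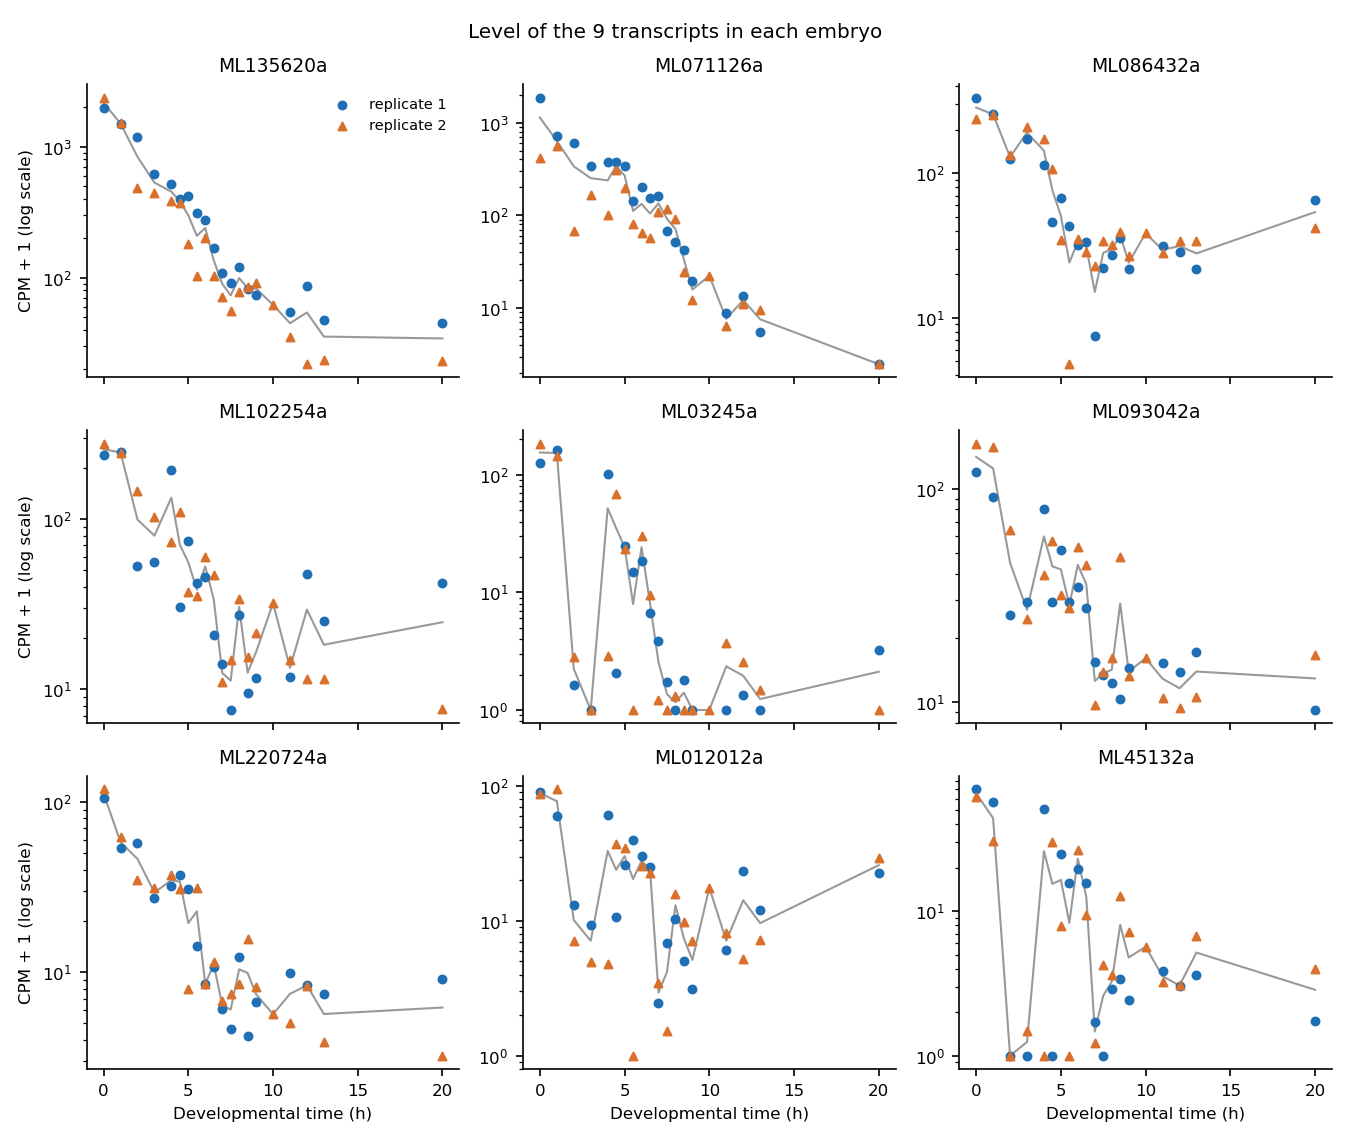
CPM + 1 (log scale) of each of the 9 transcripts in each embryo against age in hours, with 1 panel per gene, circles for replicate 1, triangles for replicate 2 and a grey line through the mean of the embryos of each age (10 h replicate 1 is left out). ML03245a and ML45132a show the gap at 2 to 3 h and 1 high and 1 low embryo at 4 and 4.5 h, while ML135620a is lower from block to block up to 7-7.5 h.

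A dip at 2-3 h of that depth was itself rare. Of the 2748 abundant early genes 17 (0.619%) had at most 10% of their 0-1 h level at 2-3 h, and all 17 were higher at 4-5 h than at 2-3 h. At 4-5 h 15 of the 17 were above 33.3%, so the limit of the rule admitted 2 of them, ML03245a and ML45132a. The gene whose level over 39 embryos was most like ML45132a was ML22304a (r = 0.897 on log2(CPM + 1)), which is not one of the 9. ML22304a had 108 and 86.5 CPM at 0 h, 133 and 121 CPM at 1 h, and at most 0.981 CPM at 2 and 3 h. It had 112 CPM in 4 h replicate 1 and 1.25 CPM in replicate 2, and 6.46 CPM in 4.5 h replicate 1 and 119 CPM in replicate 2. The gene most like ML03245a was ML231814a, with r = 0.874. The embryos share their ages and depth, so these values describe likeness of course and carry no test.

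The 9 did not share 1 course. Over the 36 pairs among them r ranged over 0.315 to 0.896 with a median of 0.669, the highest being that of ML220724a and ML135620a. The genes most like ML071126a and ML135620a were not among the 9, with r = 0.945 between ML071126a and ML104343a and r = 0.936 between ML135620a and ML223532a.

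The differences between times within a block were tested with edgeR on all 9576 genes with enough reads, which include the 9, with a call at an adjusted p under 0.05 and a log2 fold change of at least 1 in size. Called genes were 0 of 9576 (0%) for 1 h against 0 h, 9 (0.0940%) for 3 h against 2 h, and 58 (0.606%) for 5 h against 4 h. None of the 9 was called in any of them, nor with DESeq2, and 1 had an unadjusted p under 0.05 in any comparison (ML086432a, 5 h against 4 h). The share of all genes with an unadjusted p under 0.05 was 2.26% (216 genes) for 1 h against 0 h, 1.59% for 3 h against 2 h and 12.7% for 5 h against 4 h. For 1 h against 0 h DESeq2 called 14 genes. Each comparison had 2 embryos a side, and a miss does not show equal levels. Shares of all genes in these comparisons are over the 9576. They were not computed for the 2748 genes with at least 50 CPM at 0-1 h, so they are no background of like level for the 9.

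The fitted log2 fold change of 1 h against 0 h was below 0 for all 9, with a median of -0.27 and a range of -1.04 to -0.12, and below 0 for 48.0% of all genes. ML220724a had the furthest, -1.04 ± 0.59 (SE), with 57.0 CPM at 1 h and 111 CPM at 0 h on average (edgeR, adjusted p = 1). Both 1 h embryos were below both 0 h embryos for ML135620a, ML220724a and ML45132a, as they were for 10.9% of all genes. ML03245a had -0.12 ± 1.17 (SE), with 152 CPM at 1 h and 154 CPM at 0 h on average. The 9 entered by their level in these same embryos, and for some a single embryo decided it. Without 0 h replicate 1 ML071126a, ML220724a and ML012012a no longer met the rule. Without 0 h replicate 2 ML093042a, ML220724a and ML012012a did not, and without 1 h replicate 2 ML093042a and ML012012a. Nothing is therefore read from the sign that the 9 shared.

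For 3 h against 2 h the median of the 9 was -0.64, over a range of -4.08 to 1.99, and 7 were below 0, as were 48.1% of all genes. Both ends of that range belong to ML03245a and ML45132a, which had at most 3 reads per embryo at these times. Both 3 h embryos were below both 2 h embryos for ML220724a and ML03245a, against 6.92% of all genes. ML086432a had the opposite direction, with 190 CPM at 3 h and 128 CPM at 2 h on average, a log2 fold change of 0.52 ± 0.58 (SE, edgeR adjusted p = 1).

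For 5 h against 4 h the median of the 9 was -0.66, over a range of -1.61 to 0.18, and 7 were below 0, against 43.9% of all genes. ML086432a had -1.61 ± 0.60 (SE), with 49.6 CPM at 5 h and 142 CPM at 4 h on average, an unadjusted p of 0.0118 and an adjusted p of 0.256 in edgeR's test, and over its alternatives the lowest adjusted p was 0.0937, without the shallow libraries. ML102254a had -1.29 ± 0.74 (adjusted p = 0.457) and ML220724a -1.03 ± 0.62 (adjusted p = 0.479). Both 5 h embryos were below both 4 h embryos for ML086432a and ML220724a, as for 14.9% of all genes. Among the 58 genes called at these ages 55 were higher and 3 lower at 5 h. The 4 h embryos were split, as given above. ML03245a and ML45132a were below 0 though both 5 h embryos were above 4 h replicate 2. ML102254a had 193 CPM in 4 h replicate 1 and 72.1 CPM in 4 h replicate 2. Without 5 h replicate 2 ML071126a, ML086432a, ML093042a and ML220724a no longer met the rule. Without 4 h replicate 2 ML071126a and ML012012a did not. Nothing is therefore read from the count of 7.

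**Figure D5:**
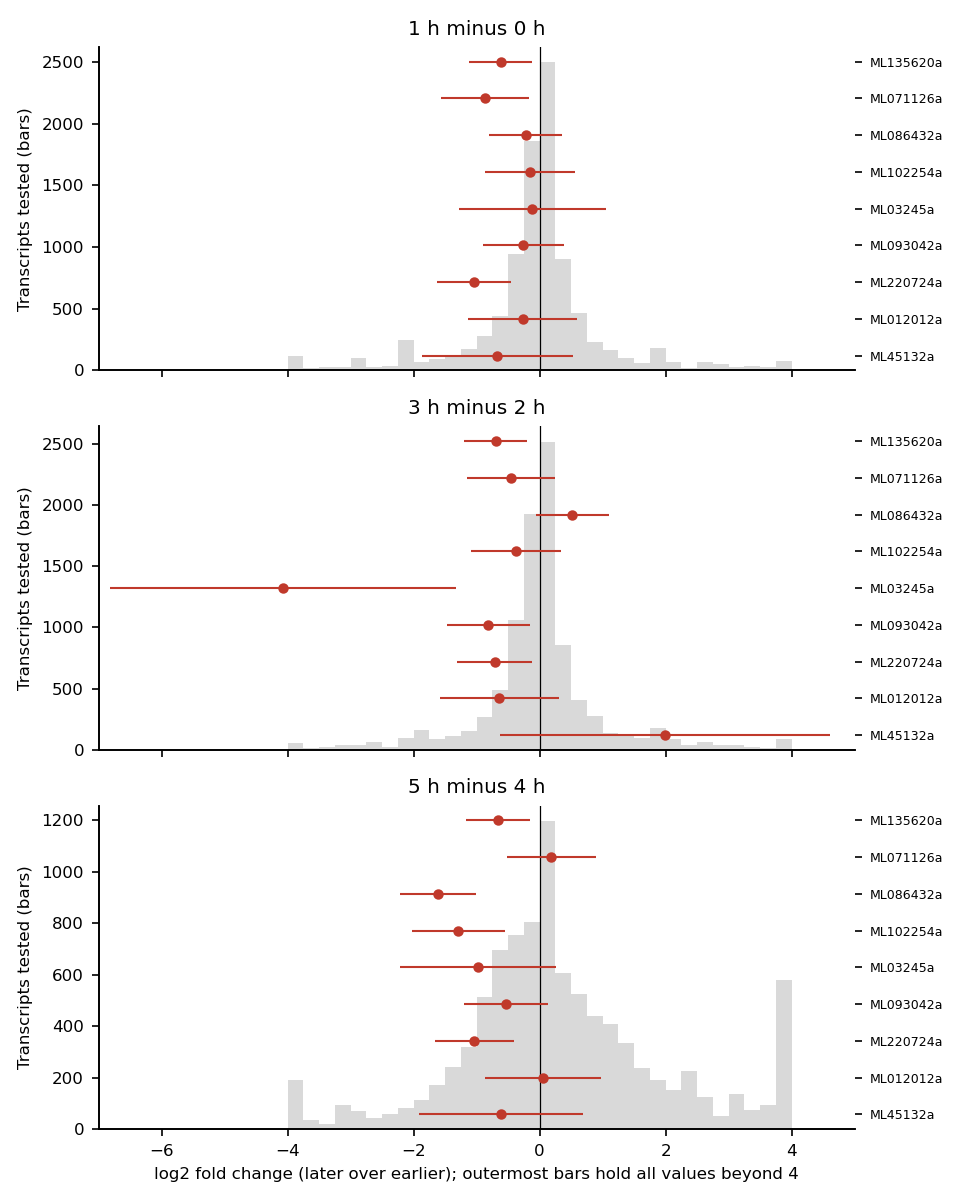
Fitted log2 fold change (edgeR) of the 9 transcripts for 1 h against 0 h, 3 h against 2 h and 5 h against 4 h, with bars of 1 standard error, over a grey histogram of all 9576 genes whose outermost bars hold all values beyond 4. None of the 9 passed the test in any of the comparisons, and their medians were -0.27, -0.64 and -0.66.

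The 10 h embryos took no part in the choice of genes, but the rule limits the 8-9 h and 11-13 h blocks on either side against the same 0-1 h level, so the count at 10 h was nearly fixed by it. In 10 h replicate 2 all 9 were at or below 33.3% of their 0-1 h level, as were 33.6% of the 2748 abundant early genes. ML135620a had 61.2 CPM there (3.33% of its 0-1 h level), ML071126a 21.3 CPM (2.61%) and ML220724a 4.67 CPM (5.61%). ML03245a had 0 reads. ML012012a had the highest share, 16.6 CPM or 20.7%. The other embryo, 10 h replicate 1, had 3808 gene reads, of which 4 were from the 9, and gives no level.

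Late levels differed among the 9. At 20 h 5 of them were at least 2 times their lowest block from 4-5 h on: ML012012a (10.3 times), ML03245a (3.67 times, on 3 reads), ML086432a (2.44 times), ML102254a (2.22 times) and ML45132a (2.12 times, on 5 reads). The same held for 11.2% of the 2748 abundant early genes, whose blocks from 4 h on were not held low by the rule as those of the 9 were. ML012012a had 21.6 and 28.3 CPM at 20 h, 31.0% of its 0-1 h level and close to the limit, with a lowest block of 2.41 CPM at 7-7.5 h. ML086432a had both 20 h embryos above its 6 to 13 h embryos, as given above. ML102254a had 40.9 and 6.69 CPM at 20 h, so its value rests on 20 h replicate 1. Without 20 h replicate 1, the genes that met the rule and were at least 2 times their lowest block were down to 1, ML45132a, on 4 reads. ML086432a was then at 1.89 times, and ML012012a, at 11.7 times, no longer met the rule. The other 4, ML135620a, ML071126a, ML093042a and ML220724a, had 33.5, 1.49, 11.9 and 5.20 CPM at 20 h.

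Several of the 9 lay just inside a limit. At 0-1 h ML45132a had 53.9 CPM and ML012012a 80.3 CPM, against the limit of 50 CPM, and just outside it ML40299a had 44.2 CPM and ML40986a 37.8 CPM with all other limits met. At 4-5 h ML071126a stood at 32.3% and ML093042a at 32.0%, and just outside were ML082710a with 33.8% and ML069129a with 35.7%. At 5.5-6.5 h ML012012a had 32.9% and ML45132a 31.1%. In all, 59 genes missed the 0-1 h limit alone and 37 missed the 4-5 h limit alone. ML082710a had the course of the third kind, with 57.9 CPM at 0-1 h, 4.67 CPM at 2-3 h, 19.5 CPM at 4-5 h and 3.61 CPM at 7-7.5 h.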

How the data were processed

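The authors deposited read counts per gene model for 40 single embryos. Per the submitters' processing notes CASAVA 1.8, Bowtie2 2.1.0 and HTSeq 0.5.4p3 were used. Build, annotation and merging of molecular barcodes were not given in the sources used here. The 5 rows that name no gene held a median of 69.18% of an embryo's reads and were left out. Replicate numbers name embryos. The authors' deposited sample sheet gives each library an Illumina index number, which is 6 for every replicate 1 and 12 for every replicate 2, so index and replicate number coincide.

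Block CPM was computed from summed counts with Python 3.11.15. The tests used edgeR 4.0.16 in R 4.3.3 (quasi-likelihood, TMM, filterByExpr with a count minimum of 10, 20 times as a factor, all 40 embryos), with Benjamini-Hochberg adjustment within a comparison over 9576 genes. SE is the log2 fold change over the square root of F. P-values rest on the spread between same-age embryos, which joins differences between embryos and between index numbers. That spread was estimated over all 40 embryos, the shallow 10 h replicate 1 and the split 4 and 4.5 h embryos among them. DESeq2 1.42.0, other scalings and filters, and embryos left out were alternatives. On simulated data with 2 embryos a side (5 h against 4 h, 8203 genes), 65 of 100 genes changed 4-fold and 100 of 100 changed 16-fold were called, with 5 false calls. The changed genes had a mean of at least 20 reads, and the simulated dispersion was 0.1. The real fit had a median BCV, the square root of the dispersion, of 0.504. Its spread was wider, so the simulated shares do not give the power of the real tests.

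The 9 genes, the limits and the comparisons were chosen with earlier results of these data known. The genes named are the 9, those nearest each limit, those that left the rule after 4-5 h and those most like a member in course. Genes given in addition were chosen after their values were seen: ML30695a and the genes of the split at 4 and 4.5 h. The kinds of course were likewise drawn from the values.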

Additional observations from a re-analysis of the deposited data

Results flagged for a closer look

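Of 63 groups of 4 to 6 embryos, 1 block of 1 gene each, 7 held an embryo far from the others relative to the group's range. The limit used flags about 1 in 20 groups of normally distributed values. These groups join ages and depths, and some hold few reads, so the count is not set against that rate. ML135620a had 120.3 CPM in 8 h replicate 1, the nearest of the 8-9 h embryos having 90.07 CPM. ML093042a had 63.37 CPM in 2 h replicate 2, the nearest of the 2-3 h embryos having 28.53 CPM. ML093042a also had 46.62 CPM in the shallow 8.5 h replicate 2, on 16 reads, the nearest having 15.04 CPM. ML220724a had 6.948 CPM in 5 h replicate 2, on 16 reads, the nearest of the 4-5 h embryos having 29.93 CPM. ML220724a had 30.3 CPM in the shallow 5.5 h replicate 2, on 8 reads, the nearest having 13.21 CPM. ML45132a had 0.4904 CPM in 3 h replicate 2, on 1 read, the other embryos of 2-3 h having 0. ML45132a had 5.74 CPM in 13 h replicate 2, on 12 reads, the nearest of the 11-13 h embryos having 2.854 CPM.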

How the results depend on the processing

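The number of genes that met the rule was 9. It was 4 with the mean of the embryos' CPM, 3 with TMM, 4 with median-of-ratios scaling, 35 with a limit of 1/2, 2 with a limit of 1/4 and 14 without both 4 h replicate 1 and 4.5 h replicate 2 (added after the data were seen). The same counts held for members at or below 33.3% at 10 h. Members below 1/2 at 2-3 h, 8 as reported, numbered 3, 3, 3, 20, 2 and 13 in that order of settings, 5 with index 6 alone and 5 with at least 100 CPM at 0-1 h. Those from 1/2 to below 1, 1 as reported, numbered 0 with TMM, 2 with index 6, 0 with index 12, 15 with 1/2 and 0 with 1/4. Those higher again at 20 h, 5 as reported, numbered 2 with mean CPM, 2 with TMM, 3 with median-of-ratios, 3 with at least 100 CPM, 14 with 1/2, 1 with 1/4 and 2 at 3 times the lowest block. The cause was not tested.

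Leaving out each embryo in turn gave 5 to 13 members (5 without 5 h replicate 2, 13 without 4.5 h replicate 2), 5 to 12 of them below 1/2 at 2-3 h and 0 to 2 from 1/2 to below 1, 1 to 7 higher again at 20 h, and 5 to 13 at or below 33.3% at 10 h. Without 20 h replicate 1, 1 was higher again, and 3 without 4.5 h replicate 1 or 6.5 h replicate 2. The libraries of index 6 alone gave 7 members and those of index 12 alone 9, with 3 in both, 42.9% and 33.3% of each. None of 423 alternative values of the log2 ratio of 4-5 h over 0-1 h of the 9 moved past its spread between embryos. Most of them left out an embryo of another block, which could not move the ratio. The spread was that of single embryos at 4-5 h, with the split ones among them, so it was wide and nothing is read from this count. Without both 4 h replicate 1 and 4.5 h replicate 2 ML03245a moved to 7.68% and ML45132a to 11.0% of 0-1 h.

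Members called in the tests were 0 in each comparison under all 22 alternatives, among them the replicate block of the index number, which gave 0 members in each. Over all genes the calls ranged over 0 to 14 for 1 h against 0 h, 0 to 28 for 3 h against 2 h and 0 to 353 for 5 h against 4 h, with 0 in that last comparison without 4 h replicate 2 or without 5 h replicate 2, 97 with the replicate block and 118 with DESeq2, against 58 as reported. Differences between same-age embryos of index 6 and 12 had a median r of 0.0839 over 171 pairs of ages. These r ranged over -0.223 to 0.459, with 71 over 0.1. The TMM factor was higher for index 6 than for index 12 at every age but 8.5 h, for example 1.15 and 0.936 at 5 h. A shift by index cannot be told from one by replicate number, and the main fit had no term for it. Fits without an embryo were run for the 14 embryos of 0 to 5 h and not run for the other 26, and an age left with 1 embryo was taken to vary like the others. In shallow 5.5 h replicate 2, levels under 11.4 CPM could not be told from 0.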
